A study of Mus musculus with 947 samples.

Results

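The microRNAs of the miR-23, miR-27 and miR-24 clusters were followed through small RNA sequencing of mouse tissues. They are 5 mature miRNAs, mmu-miR-23a-3p, mmu-miR-27a-3p, mmu-miR-23b-3p, mmu-miR-27b-3p and mmu-miR-24-3p (written below without the species prefix). They were chosen by name for the genes that encode them, with earlier results of these data known. All 5 were listed in both deposited tables, as 5 of 1076 miRNAs (7883 noncoding RNAs in all) in the aging cohort and 5 of 795 miRNAs (5248 RNAs) in the parabiosis cohort. The aging cohort (Tabula Muris Senis, TMS) held 769 libraries from C57BL/6JN mice without further treatment, 553 from males and 216 from virgin females. It covered 16 tissues at 10 ages, 1 month and then every 3 months from 3 to 27 months, with males only at 24 and 27 months and 1 to 6 libraries per tissue and age. Of the 16 tissues, 4 were fat depots, named here SCAT (subcutaneous), MAT (mesenteric), GAT (gonadal) and BAT (brown, interscapular). The others were lung, skin, heart, limb muscle (the tibialis anterior), kidney, liver, pancreas, small intestine (duodenum), spleen, marrow, bone and brain.

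The parabiosis cohort held 176 libraries from 30 male mice and 6 tissues (GAT, heart, kidney, limb muscle, liver and MAT). In parabiosis a pair of mice is joined surgically so that they share a circulation. Isochronic young mice (IY, 8 mice in 4 pairs) were 3 or 4.5 months old, and isochronic aged mice (IA, 8 mice in 4 pairs) were 19 months old. In the 7 heterochronic pairs, a young mouse of 4 months (HY) was joined to an aged mouse of 19 months (HA). IY, IA and HA mice were of the C57BL/6J or C57BL/6JN substrain, while every HY mouse was of another strain on the C57BL/6 background. The sources of the study did not name the same substrain for the same mice, so C57BL/6J and C57BL/6JN are not told apart here. HY and IY mice thus differed in genotype and in age as well as in the partner, and these differences cannot be told apart. All mice were perfused with PBS before dissection, and the labels do not link the tissues of 1 mouse in the aging cohort.

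MicroRNAs are short RNAs that guide Argonaute proteins to messenger RNAs, mainly through the seed, bases 2 to 8 from the 5′ end. Each hairpin precursor can give a mature strand from its 5′ arm (5p) and from its 3′ arm (3p). The miR-23, miR-27 and miR-24 clusters are a pair of paralogous transcription units. They are known from endothelial cells, where they act in the growth of vessels, from T cells, from fat cells, where miR-27 restrains differentiation, and from muscle.

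In the genome annotation of GRCm38.p6 (mm10), Mir23a, Mir27a and Mir24-2 lay within 404 bases of the plus strand at chr8:84208518-84208921, and are called the a-cluster here. No protein-coding gene overlapped them, and the last bases of Mir24-2 met the start of the long noncoding RNA Gm26532. Mir23b, Mir27b and Mir24-1, the b-cluster, lay within 792 bases of the plus strand at chr13:63300484-63301275. They lay inside the protein-coding gene 2010111I01Rik on the same strand. Mir23b overlapped none of its annotated exons, whereas Mir27b and Mir24-1 overlapped annotated exons. The same stretch was intronic to Fancc, a DNA repair gene on the opposite strand.

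The mature sequences, taken from RefSeq hairpins on that build, are shown because what the table can tell apart rests on them. Capitals mark the seed.
miR-23a-3p: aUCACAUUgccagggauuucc
miR-27a-3p: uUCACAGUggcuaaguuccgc
miR-27b-3p: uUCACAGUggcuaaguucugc
miR-24-3p: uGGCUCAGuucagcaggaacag
miR-24-2-5p: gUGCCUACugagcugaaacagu
miR-24-1-5p: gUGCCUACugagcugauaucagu
miR-27a-3p and miR-27b-3p shared the seed UCACAGU and differed at 1 position, C19U (miR-27a-3p first, counted from 1 at the 5′ end). The alignment of the study allowed 1 mismatch per read, so reads of miR-27a-3p and miR-27b-3p may have been assigned to each other, to an extent that was not tested. The reference held no mature sequence of miR-23b-3p, so none is shown. Cross-assignment between reads of miR-23a-3p and miR-23b-3p was not tested either. miR-24-3p comes from both clusters and stands as 1 row of the tables, so that its value cannot be split by cluster. The 5p products of the miR-24 genes differ by 1 base in length. They differ at 5 positions when compared base by base without a gap, a count that a gap would lower. They stand as separate rows, miR-24-2-5p for the a-cluster and miR-24-1-5p for the b-cluster.

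Values are rpmm, reads per M mapped reads (M for 1000000), as deposited. The depth recovered from them was 2.29 to 167 M reads in the aging cohort (median 20.1 M) and 9.20 to 47.6 M in the parabiosis cohort (median 20.1 M). The fewest reads behind a member in any library were 121 for miR-23b-3p, 247 for miR-23a-3p, 535 for miR-27b-3p, 548 for miR-24-3p and 652 for miR-27a-3p, and no library of the parabiosis cohort had fewer than 5227. Marker miRNAs fixed for the tissues were highest where the labels placed them. The hepatocyte miRNA miR-122-5p had a median of 108491 rpmm in liver, the neuronal miR-124-3p 107614 in brain, the muscle miR-133a-3p 188033 in limb muscle, and miR-217-5p 1638 in pancreas. Each library was compared with the tissue means by rank correlation over miRNAs of at least 10 rpmm on average. By this measure 12 libraries of the aging cohort and 5 of the parabiosis cohort were closer to another tissue than to their own. Of these, 4 of the 12 and all of the 5 were MAT libraries. The tests over all ages, 21 against 3 months, maturation and the paralogue ratios were repeated without the 12, and the parabiosis calls below are in heart and kidney, where no library stood apart in this way. As these are whole tissues, fewer cells that carry a miRNA and less of it per cell cannot be told apart.

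The 5 members were among the abundant miRNAs of every tissue. They made up between 1.80% (brain) and 12.8% (skin) of all miRNA rpmm in the median library of a tissue, with 10.4% in lung, 8.89% in pancreas, 6.04% in heart, 2.97% in liver and 2.07% in limb muscle. By median rank among miRNAs, miR-27a-3p stood 4th in skin and 7th in lung, and miR-27b-3p stood 5th in pancreas. Lung had the highest level of all 5. In lung, mmu-miR-27a-3p had a median of 16132 rpmm (range 5263 to 24632, n = 55), mmu-miR-27b-3p 13131 (3613 to 24188), mmu-miR-24-3p 13106 (2730 to 24581), mmu-miR-23a-3p 6809 (1367 to 11968) and mmu-miR-23b-3p 5182 (999 to 7532).

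miR-23a-3p, from the a-cluster, was next highest in skin (median 5875 rpmm) and SCAT (4341), followed by GAT (3710), MAT (3705) and heart (3379). Its medians were 2486 in bone, 2432 in BAT, 2342 in kidney, 1663 in limb muscle, 1387 in marrow, 1301 in small intestine, 1248 in pancreas and 1233 in spleen. It was lowest in liver (679) and brain (790). miR-27a-3p, its neighbour in the a-cluster, followed nearly the same order, with 11595 in skin, 9230 in SCAT, 8612 in GAT, 8439 in heart and 7461 in MAT, and with 1619 in liver and 1279 in brain, so that its highest tissue median was 12.6-fold above its lowest.

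The b-cluster members were ordered differently. miR-23b-3p was next highest in kidney (4250 rpmm, range 305 to 7030) and heart (3187), and then in MAT (2879) and skin (2860). It was near 1500 in both GAT (1501) and SCAT (1500), and lowest in marrow (638). In brain it reached 1746 and in liver 1348, above miR-23a-3p in both tissues. miR-27b-3p, its neighbour, had medians of 7896 in heart, 7506 in kidney, 5692 in pancreas, 5644 in skin, 3865 in liver and 3299 in brain, and was lowest in marrow (1620). The spans of miR-23b-3p and miR-27b-3p were 8.13-fold and 8.10-fold.

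miR-24-3p, encoded in both clusters, had medians of 10319 rpmm in heart, 7071 in kidney, 6774 in MAT, 6683 in skin, 6420 in GAT and 5885 in SCAT. It was 3078 in brain, 2518 in liver and 1481 in marrow, and lowest in pancreas at 1192 (range 66.9 to 3918). Libraries of 1 tissue differed widely. In pancreas the lowest and highest libraries were 79.5 and 4917 for miR-27a-3p, and in BAT 263 and 9017, whereas in marrow they were 1275 and 3321.

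**Figure D1:**
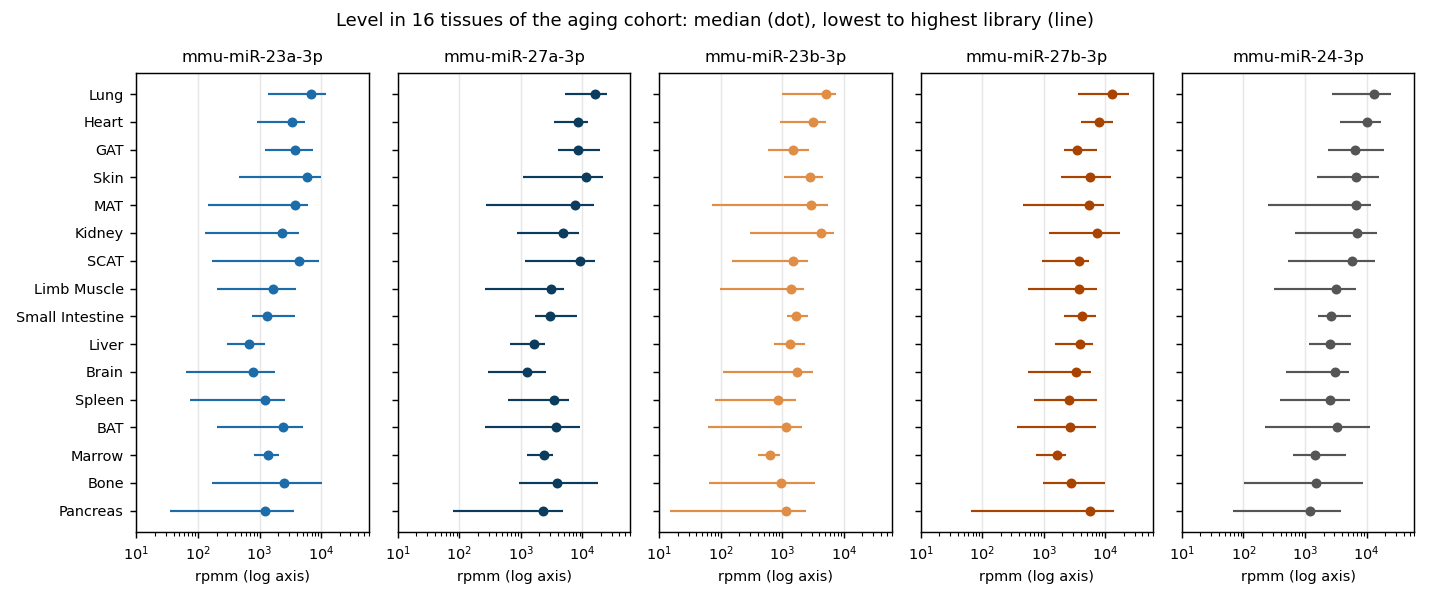
Level of the 5 members in the 16 tissues of the aging cohort. Each panel is 1 miRNA, the x axis is rpmm on a log scale, the dot is the median over all libraries of a tissue and the line runs from the lowest to the highest library. Lung had the highest median of each member, and the a-cluster panels fall to their lowest medians in liver and brain.

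With the tissues put in the order of their mean log2(rpmm + 1), many neighbours in the order lay within their spread (limma, adjusted p over all miRNAs). Of the 75 steps between neighbours over the 5 members, 19 were called, against 63.1% of all miRNAs over the same pairs of tissues, where neighbours were not neighbours by those miRNAs' own levels. Lung and skin did not pass for miR-23a-3p (log2 difference 0.23, adjusted p = 0.216), but lung was above skin for miR-27a-3p (0.58, adjusted p = 0.000124). Lung was above kidney for miR-23b-3p (0.52, adjusted p = 0.00343) and above heart for miR-27b-3p (0.71, adjusted p = 5.29e-07). For miR-24-3p lung and heart did not pass (0.27, adjusted p = 0.132). The largest of the 75 steps was between SCAT and limb muscle for miR-24-3p (0.96, adjusted p = 4.92e-08). Steps between MAT and kidney for miR-27a-3p (0.71, adjusted p = 4.5e-06) and between spleen and liver for miR-23a-3p (0.60, adjusted p = 0.000404) were also called.

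Members encoded side by side had the most similar pattern over tissues. Over the 16 tissue means, Pearson's r of log2(rpmm + 1) was 0.96 for miR-23a-3p with miR-27a-3p and 0.92 for miR-23b-3p with miR-27b-3p. It was 0.60 for miR-23a-3p with miR-23b-3p and 0.65 for miR-27a-3p with miR-27b-3p. Within tissues the order turned. Over the 769 libraries with tissue means removed, r was 0.93 for miR-23a-3p with miR-23b-3p and 0.88 for miR-27a-3p with miR-27b-3p, and 0.78 and 0.82 for the 2 pairs encoded side by side. All of these values share the libraries and their scaling, and the paralogues of a family also share nearly the same sequence.

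Outside the clusters, the miRNAs whose tissue means were most like those of miR-23a-3p, among 331 candidates of at least 10 rpmm on average, were miR-199b-5p (r = 0.85), miR-199b-3p (0.84) and miR-199a-3p (0.84). For miR-27a-3p they were miR-199b-3p (0.86), miR-199a-3p (0.86) and miR-224-5p (0.84). The miR-199 family is known from fibroblasts and other mesenchymal cells. For miR-23b-3p they were miR-30b-5p (0.80), miR-26a-5p (0.76) and let-7c-5p (0.73), for miR-27b-3p miR-30b-5p (0.72), miR-345-5p (0.69) and miR-152-3p (0.66), and for miR-24-3p miR-99b-5p (0.85), miR-26a-5p (0.84) and let-7a-5p (0.81). Within tissues, over 769 libraries, the closest were miR-103-3p, miR-107-3p and miR-25-3p for both miR-23a-3p (0.90, 0.87 and 0.86) and miR-23b-3p (0.87, 0.89 and 0.88). For miR-27a-3p they were miR-26a-5p (0.90), miR-26b-5p (0.86) and miR-125b-2-3p (0.83), and for miR-27b-3p miR-26a-5p (0.88), let-7g-5p (0.85) and miR-26b-5p (0.84). For miR-24-3p they were miR-99b-5p (0.89), miR-152-3p (0.86) and miR-425-5p (0.86).

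The balance of the clusters was read as the log2 ratio of an a-cluster product to its b-cluster paralogue in the same library, a measure in which the scaling of the library cancels apart from the pseudocount. The a-cluster product was above its paralogue in SCAT, GAT, skin and marrow for both families, and below it in brain, liver and kidney. For miR-23a-3p to miR-23b-3p the median log2 ratio was 1.62 in SCAT, 1.46 in GAT, 1.37 in bone, 1.18 in marrow, 1.15 in BAT and 1.06 in skin. It was above 0 in 44 of 44 SCAT, 37 of 37 GAT, 48 of 48 bone, 56 of 56 marrow and 31 of 31 BAT libraries. The ratio stood near 0 in heart (0.06) and was −1.09 in brain, −1.04 in liver and −0.85 in kidney. It was below 0 in 50 of 51 brain, 52 of 52 liver and 50 of 51 kidney libraries.

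The miR-27 ratio followed that order with an exception in pancreas. Its medians were 1.34 in GAT, 1.33 in SCAT, 0.96 in skin and 0.57 in marrow, and −1.31 in brain, −1.20 in liver and −0.57 in kidney. In pancreas it was −1.34 and below 0 in 44 of 45 libraries, where the miR-23 ratio was 0.20. MAT stood at 0.29 for miR-23 and 0.43 for miR-27, and BAT and bone at 0.30 and 0.48 for miR-27, all below GAT and SCAT.

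The 5p products, which differ more in sequence, gave a like order of tissues. miR-24-2-5p exceeded miR-24-1-5p in 768 of 769 libraries, with median log2 ratios of 3.80 in SCAT, 3.70 in GAT, 3.09 in lung, 2.24 in liver, 1.73 in kidney and 0.68 in brain. In brain the levels behind the ratio were 9.99 and 5.72 rpmm, and in lung 95.1 and 11.1. The other 5p products were scarce. Lung medians were 5.04 rpmm for miR-23a-5p, 6.79 for miR-23b-5p, 4.83 for miR-27a-5p and 5.35 for miR-27b-5p. Across the 16 tissue medians, r between any 2 of the 5 ratios (miR-23-3p, miR-27-3p, miR-24-5p, miR-23-5p and miR-27-5p) lay between 0.82 and 0.94, a description over tissues that share the libraries.

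**Figure D2:**
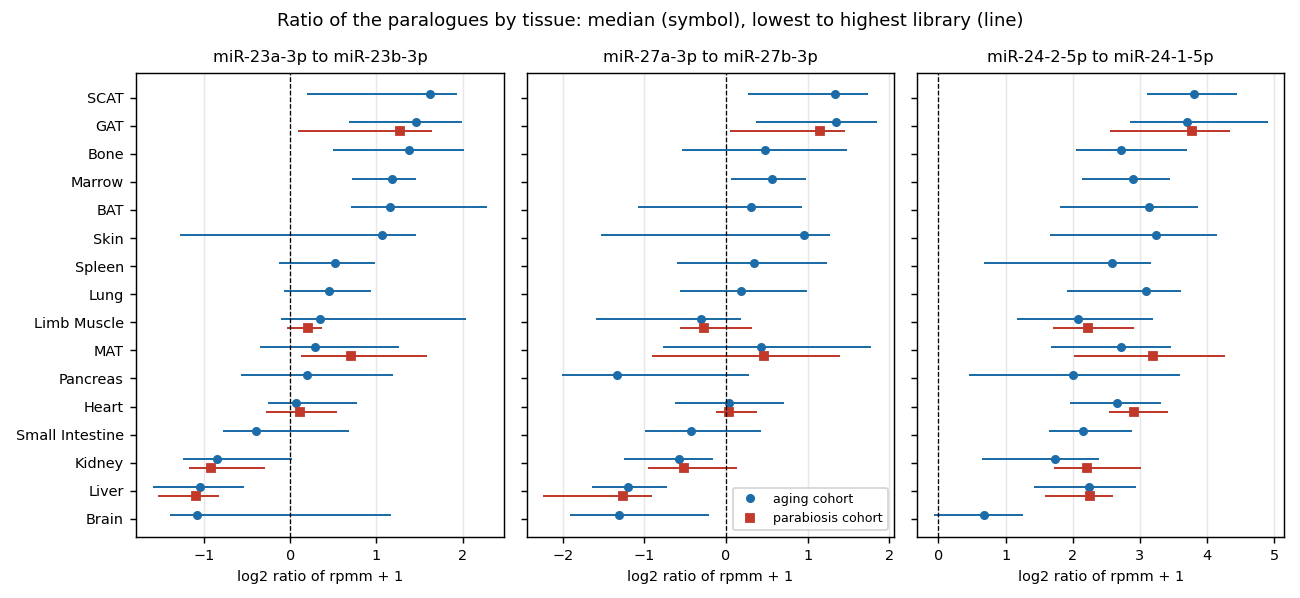
Log2 ratio of a-cluster to b-cluster product by tissue for miR-23-3p, miR-27-3p and the miR-24 5p arms. Symbols are medians over libraries and lines run from the lowest to the highest, with blue circles for the aging cohort and red squares for the parabiosis cohort. Subcutaneous and gonadal fat stand highest in each panel of the aging cohort, and brain stands at or near the lowest.

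In the parabiosis cohort the 6 tissues kept their order for the miR-27 ratio, and for the miR-23 ratio MAT and limb muscle changed places. The medians of the miR-23 ratio were 1.27 in GAT, 0.70 in MAT, 0.21 in limb muscle, 0.12 in heart, −0.92 in kidney and −1.09 in liver. Those of the miR-27 ratio were 1.15, 0.46, −0.27, 0.03, −0.52 and −1.26 in the same tissues. In both cohorts miR-27b-3p exceeded miR-23b-3p in every library (769 and 176), and miR-27a-3p exceeded miR-23a-3p in 740 of 769 and in 176 of 176. Levels again differed by tissue. miR-24-3p had medians of 13093 rpmm in heart, 8001 in kidney, 7004 in GAT, 4623 in MAT, 3562 in limb muscle and 2031 in liver, and miR-27a-3p of 7243 in heart, 6777 in GAT, 5169 in kidney, 4442 in MAT, 3487 in limb muscle and 1003 in liver.

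Whether the members change over the lifespan was asked first by Spearman's rho of rpmm with age over all libraries of a tissue, called above 0.5 or below −0.5. Members passed the upper limit in BAT alone, and over all tissues at about the share of all miRNA relations. Of 80 relations, 3 lay above 0.5, all in BAT, and 0 below −0.5, where 3.75% of all miRNA relations lay above 0.5 and 4.31% below −0.5. The median rho of the members was 0.15 and ran from −0.38 to 0.58, with 66 relations above 0 and 14 below.

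In BAT, miR-24-3p was 2208 rpmm in the 1 library of 1 month, 1028 and 543 at 3 months, 504 at 6 months, 4236, 744 and 292 at 9 months, and 2103, 3836 and 755 at 12 months. It was 3463, 4141, 4373, 3315 and 636 at 15 months, 4337, 224, 3238, 606 and 4545 at 18 months, and 3700, 4957, 1557 and 2210 at 21 months. At 24 months it was 7059, 6487 and 297, and at 27 months 5619, 11242, 5508 and 5205. The 4 libraries of 27 months were all above every library of 1 to 21 months, while between 9 and 24 months each age held low and high libraries side by side. Low libraries were low in every member. miR-23a-3p was 1371 and 363 at 3 months and 2653, 3082, 3650 and 3155 at 27 months, and it was 352 in the lowest library of 24 months. Both libraries of 3 months shared a plate that held no BAT library of another age. The libraries of 1 and 3 months were from females, and those of 24 and 27 months from males. With plate means removed 1 member relation with age was called over all tissues, and in males only more were called than over both sexes.

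Over the 31 BAT libraries, rho was 0.58 for miR-23a-3p (adjusted p = 0.0263 by permutation, over all miRNAs of the tissue), 0.58 for miR-24-3p (adjusted p = 0.0263) and 0.56 for miR-23b-3p (adjusted p = 0.0263). It was 0.49 for miR-27a-3p (adjusted p = 0.0291) and 0.44 for miR-27b-3p (adjusted p = 0.0415), short of the study's limit. The linear correlation of log2(rpmm + 1) with age (Pearson's r) was 0.43 for miR-23a-3p (permutation p = 0.0154), 0.47 for miR-24-3p (permutation p = 0.00813) and 0.46 for miR-23b-3p (permutation p = 0.00948). Leaving out the 2 libraries with the most extreme ages around the median gave 0.47, 0.51 and 0.47 in that order. Of all BAT miRNAs 15.2% had a rho above 0.5, and 41.3% passed at an adjusted p under 0.05 with a positive rho, so that a rise was common in this tissue.

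Summed miRNA rpmm in BAT moved in the same way. It ran from 62320 to 472184 (median 287440) and had a rho of 0.54 with age. The members' own rho with that sum was 0.90 for miR-23a-3p, 0.94 for miR-27a-3p, 0.96 for miR-23b-3p and 0.91 for both miR-27b-3p and miR-24-3p, as a description over 31 libraries. Of the marker lists, the vessel list had a rho of 0.52 with age, white blood cells 0.50, skin 0.49, muscle 0.47, fibroblasts 0.39 and brown fat 0.16. The gut and kidney list had 0.27, epithelium 0.26, red blood cells 0.23, liver −0.14, brain −0.10 and pancreas −0.10. The part of these in the rise was not tested. When values were scaled to the miRNA reads of each library, 0 of 80 relations were called and BAT gave 0.28 for miR-23a-3p, 0.47 for miR-23b-3p and 0.43 for miR-24-3p. With median-ratio scaling, miR-23a-3p in BAT came to −0.0089. Without the libraries of 24 and 27 months, 0 relations were called.

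**Figure D3:**
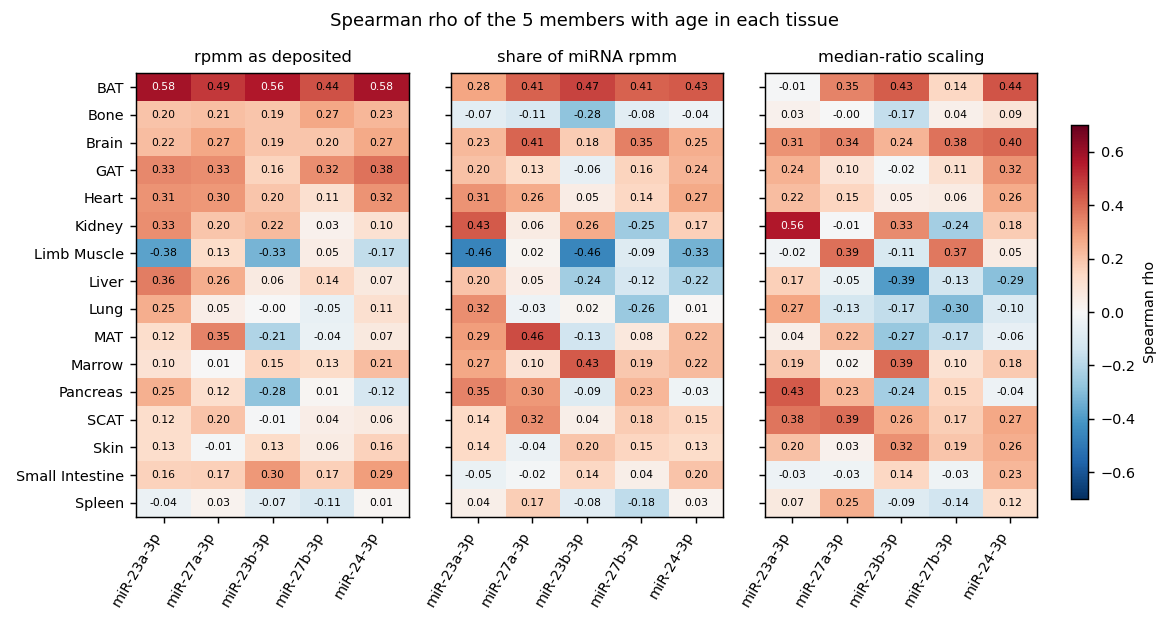
Spearman's rho of each member with age in the 16 tissues of the aging cohort, for rpmm as deposited and for 2 other scalings. Colour gives rho, with 0 in the middle of the scale. The high values of brown fat in the deposited scale shrink under both other scalings.

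Called by adjusted p instead, 7 of 80 relations passed, 6 of them positive, against 18.0% of all miRNA relations. Besides the 5 in BAT they were miR-23a-3p in limb muscle, with a rho of −0.38 (adjusted p = 0.0359 by permutation), and miR-23a-3p in liver, with 0.36 (adjusted p = 0.0433 by permutation). Pearson's r was −0.11 in limb muscle (permutation p = 0.463) and 0.37 in liver (permutation p = 0.00715). In limb muscle the fibroblast list had a rho of −0.47 with age, red blood cells −0.38, white blood cells −0.13 and vessels −0.08. The muscle list had 0.31 there and summed miRNA rpmm 0.33. In liver the fibroblast list had 0.57, white blood cells 0.49, vessels 0.28, the liver list 0.19, brown fat −0.11 and summed miRNA rpmm 0.31. The part of these was not tested. Of 109 relations of the other products of these genes, 12 passed by adjusted p, 11 of them positive. They were miR-24-2-5p in BAT (rho 0.57), small intestine (0.45), marrow (0.38) and limb muscle (−0.41), miR-24-1-5p in BAT (0.54) and bone (0.40), miR-23a-5p in BAT (0.50), MAT (0.48) and GAT (0.46), miR-27a-5p in MAT (0.42), and miR-3074-5p, from the strand opposite the miR-24 genes, in GAT (0.48) and MAT (0.39). A test of the difference in age slope between these tissues, added after the values were seen, gave steeper slopes in BAT than in limb muscle for all 5 members. The difference was 0.0797 log2 units per month for miR-23a-3p, 0.102 for miR-23b-3p, 0.0999 for miR-24-3p, 0.0910 for miR-27a-3p and 0.0730 for miR-27b-3p (limma, adjusted p from 0.0125 to 0.0387). The 5p products miR-23a-5p (0.0445), miR-23b-5p (0.0357), miR-24-1-5p (0.0666), miR-24-2-5p (0.0973) and miR-27a-5p (0.0457) were called there too. Among all miRNAs, 58.0% were called in that comparison. With median-ratio scaling 0 of the 5 were called. Between liver and limb muscle 0 of 5 members were called by limma, where 20% of all miRNAs were, and 1 of 5 was at an unadjusted p under 0.05 (1 of 5 was called after scaling to miRNA reads).

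Each later age was then set against 3 months. BAT could not be tested, as it had 2 libraries at 3 months and a contrast needed at least 3 per group. Over 15 tissues, 1 of 570 member comparisons was called by limma, against 2.76% of all miRNA comparisons, and 40 of 570 had an unadjusted p under 0.05. The median log2 change of the members was 0.25, against 0.16 for all miRNAs. The call was miR-23a-3p in liver at 27 months. Its values were 1006, 1070, 937 and 537 rpmm at 27 months, and 621, 818, 578, 387, 385 and 301 at 3 months, so that 3 of the 4 old libraries were above every young one. The log2 change was 0.82 (SE 0.30, adjusted p = 0.0345, limma). In that comparison 28.5% of all miRNAs were called. Summed miRNA rpmm was 360624 to 465530 at 27 months and 174600 to 328203 at 3 months, the fibroblast list 1490 to 1891 against 486 to 876, the white blood cell list 1055 to 2291 against 369 to 1055, and the liver list 110346 to 146667 against 48045 to 124156. Their part in the change was not tested. Scaled to miRNA reads the change was 0.15 (adjusted p = 0.795, limma) and with median-ratio scaling 0.04 (adjusted p = 0.942, limma). Of 780 comparisons of the other products, 7 were called by limma, of which those at 21 months are given with that contrast. In MAT at 27 months miR-27a-5p was 5.15 against 1.92 rpmm (log2 change 1.07) and miR-23a-5p 3.68 against 1.58 (0.87). Every MAT library of 27 months was closer to the GAT or SCAT mean than to that of MAT. Over all ages, the median of miR-27a-5p was 3.38 rpmm in GAT, 3.60 in SCAT and 2.08 in MAT. That of miR-23a-5p was 4.22, 3.48 and 2.19 in the same order. The part of this in the MAT calls was not tested. In liver miR-24-1-5p was 2.90 against 1.47 at 6 months (0.68). Liver miR-27a-5p was higher at 27 months by 0.65 on the log2 scale. Its mean at 3 months was 0.30 rpmm, under the pseudocount of 1 rpmm. In limb muscle miR-24-2-5p was 15.9 against 34.1 at 15 months (−1.07).

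In the contrast the study calls AGE, 21 against 3 months, 0 of 70 member comparisons were called by limma, against 3.86% of all miRNA comparisons. Its 14 tissues did not include BAT or skin. Of the 70, 10 had an unadjusted p under 0.05, the smallest adjusted p was 0.0911, and 54 pointed up and 16 down, with a median log2 change of 0.37 against 0.20 for all miRNAs. edgeR on the recovered reads called 1. Among the other products of the clusters, miR-24-2-5p was higher at 21 months in small intestine (21.1 against 10.5 rpmm, log2 change 0.88, adjusted p = 0.0125, limma), and miR-24-1-5p rose with it (0.63, adjusted p = 0.0262, limma).

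From 1 to 3 months, over 14 tissues that left out BAT and SCAT, 2 of 70 member comparisons were called by limma, against 1.76% of all miRNA comparisons. Both were in MAT, where 9.64% were called. miR-24-3p was 6774, 11784, 5929, 8046 and 7347 rpmm at 3 months and 6767, 248 and 6813 at 1 month (log2 change 1.78, SE 0.56, adjusted p = 0.0409, limma). miR-27a-3p was 8763, 4801, 6253, 7461 and 7711 at 3 months and 5522, 270 and 5922 at 1 month (1.73, SE 0.51, adjusted p = 0.037, limma). The low values are from 1 library, replicate 21, whose summed miRNA rpmm was 29660 where the other 1-month libraries had 451348 and 518609. Without it the changes were 0.19 and 0.26, and neither was called. With that library included, miR-24-1-5p (8.96 against 4.07 rpmm, log2 change 1.36) and miR-27b-5p (2.69 against 1.18, log2 change 0.89) were also called by limma in MAT.

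Between the sexes, over 1 to 21 months and with age as a factor, 2 of 80 member comparisons were called by limma, against 4.45% of all miRNA comparisons. Liver miR-27b-3p had a lowest, median and highest value of 2739, 4254 and 6389 rpmm in 14 females and of 1539, 3209 and 5636 in 31 males. It was higher in females by 0.48 log2 (SE 0.16, adjusted p = 0.0473, limma), in a tissue where 8.58% of miRNAs were called. Marrow miR-27a-3p had 1275, 1936 and 3116 in 16 females and 1622, 2671 and 3321 in 32 males. It was lower in females by a log2 difference of −0.38 (SE 0.11, adjusted p = 0.0345, limma), where 2.05% of marrow miRNAs were called. The ranges of the sexes overlapped in both. Summed miRNA rpmm was higher in female livers by 0.21 log2, and in female marrow the white blood cell list differed by −0.26 and the fibroblast list by −0.44, and their part was not tested. Under both other scalings and with edgeR neither call was made, with log2 differences of 0.25 to 0.30 in liver and −0.27 to −0.24 in marrow. The age slope did not pass a test of difference between the sexes for any member (0 of 80 by limma, 8 at an unadjusted p under 0.05, smallest adjusted p 0.170, against 0.238% of all miRNAs called).

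The ratios of paralogues were tested against age as well, a choice made after the values were seen. Of 80 relations (5 ratios in 16 tissues), 13 were called at an adjusted p under 0.05 by permutation, and all 13 were positive, that is, towards the a-cluster at higher age. The count was 7 with plate means removed, all positive. It was 2 without the 1-month libraries, of which miR-27-3p in skin was negative (rho −0.53), and 5 without those of 24 and 27 months, of which miR-27-3p in marrow was negative (−0.46). No share over ratios of other miRNA pairs was computed to set beside these counts. The relations of a tissue share its libraries and are not independent of each other. The miR-23-3p ratio passed in liver (rho 0.53), lung (0.49), pancreas (0.44), spleen (0.38) and kidney (0.37), the miR-27-3p ratio in MAT (0.50) and spleen (0.36), and the miR-24 5p ratio in MAT (0.55), lung (0.51) and marrow (0.38). The scarcer 5p ratios passed in MAT (0.45 for miR-23 and 0.42 for miR-27) and lung (0.42 for miR-23). In MAT the medians were 2.19 rpmm for miR-23a-5p, 2.79 for miR-23b-5p, 2.08 for miR-27a-5p and 2.14 for miR-27b-5p. These are near the pseudocount of 1 rpmm, so the scaling of a library cancels only in part in their ratios. Marker lists moved with age in several of the tissues where a ratio passed. The white blood cell list had a rho with age of 0.65 in kidney, 0.62 in MAT, 0.49 in liver, 0.47 in lung, 0.16 in pancreas, 0.09 in spleen and −0.04 in marrow. The fibroblast list had 0.57 in liver, 0.47 in MAT, 0.39 in kidney, 0.36 in marrow, −0.03 in lung, −0.08 in spleen and −0.26 in pancreas, and the vessel list 0.38 in marrow and −0.32 in MAT. The part of these in the ratios was not tested.

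In liver the median log2 ratio of miR-23a-3p to miR-23b-3p was −1.31 at 1 month (range −1.48 to −1.07, n = 6), −1.26 at 3 months, −0.91 at 9 months, −0.99 at 12 months, −1.09 at 15 months, −1.01 at 24 months and −0.65 at 27 months (range −1.10 to −0.57, n = 4). Over 52 libraries rho was 0.53 and Pearson's r 0.53 (permutation p = 6e-05 for both, adjusted p of rho 0.0028). Leaving out the 2 most extreme ages around the median gave r = 0.53. With plate means removed rho was 0.53 (adjusted p = 0.0084 by permutation), without the 1-month libraries 0.42 (adjusted p = 0.0675 by permutation) and without those of 24 and 27 months 0.46 (adjusted p = 0.0308 by permutation). The other 4 ratios did not pass in liver, with rho of 0.08 for miR-27-3p, 0.04 for the miR-24 5p arms, 0.07 for miR-23-5p and 0.32 for miR-27-5p. In lung the median was 0.07 at 1 month, 0.31 at 3 months, 0.63 at 9 months, 0.40 at 21 months, 0.74 at 24 months and 0.45 at 27 months. Pearson's r was 0.49 (permutation p = 0.00014). Its rho of 0.49 (adjusted p = 0.0028 by permutation) became 0.38 without the 1-month libraries (adjusted p = 0.0859 by permutation) and 0.51 without those of 24 and 27 months.

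In MAT the median miR-27 ratio was −0.10 at 1 month, 0.26 at 3 months, 0.66 at 15 months, 0.52 at 21 and at 24 months and 1.02 at 27 months. The median miR-24 5p ratio was 2.72 at 1 month, 2.45 at 3 months, 2.87 at 21 months and 3.31 at 27 months. Pearson's r was 0.48 (permutation p = 0.00035) for the miR-27 ratio and 0.54 (permutation p = 6e-05) for the miR-24 5p ratio, and the values became 0.39 and 0.46 when the 2 most extreme ages around the median were left out. All 3 MAT libraries of 27 months were closer to GAT or SCAT than to the MAT mean. Without the libraries closest to another tissue, rho was 0.44 for the miR-27 ratio (adjusted p = 0.0373 by permutation) and 0.50 for the miR-24 5p ratio (adjusted p = 0.0128 by permutation). With plate means removed the miR-27 ratio was no longer called (0.39, adjusted p = 0.119 by permutation), and without those of 24 and 27 months the miR-24 5p ratio was not (0.40, adjusted p = 0.0978 by permutation). In MAT of the parabiosis cohort both ratios were lower in IA than in IY (log2 differences −0.39 and −0.51), and neither was called.

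**Figure D4:**
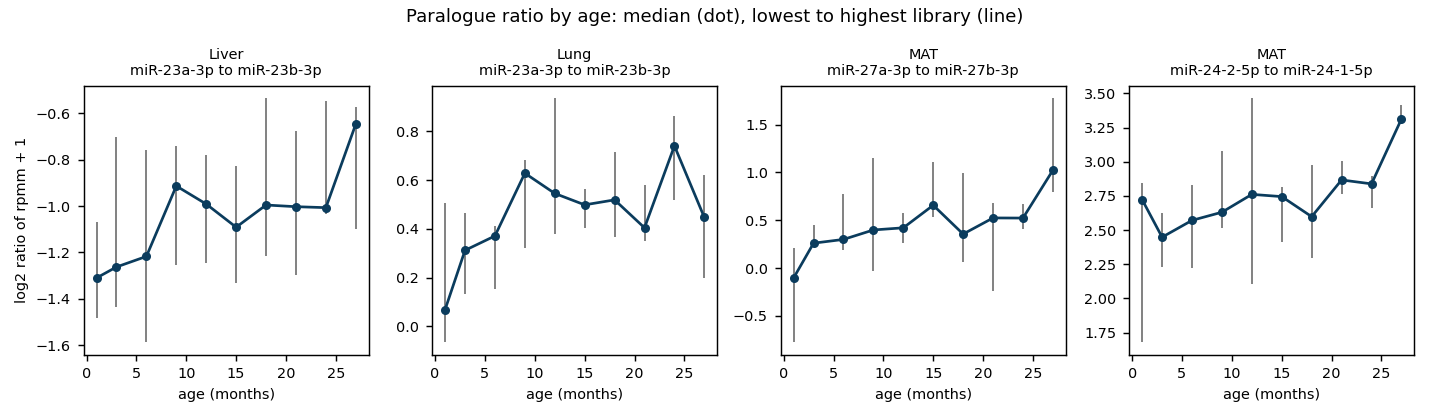
Log2 ratio of a-cluster to b-cluster product by age for miR-23-3p in liver and lung, miR-27-3p in mesenteric fat and the miR-24 5p arms in mesenteric fat. Dots are medians over the libraries of an age in months and lines run from the lowest to the highest library. The liver medians move from −1.31 at 1 month to −0.65 at 27 months, and the ranges of neighbouring ages overlap.

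In the parabiosis cohort, the contrasts share groups, so their calls are not independent of each other. For rejuvenation (REJ, HA minus IA) 0 of 30 member comparisons were called by limma, against 0.965% of all miRNA comparisons, with 4 at an unadjusted p under 0.05, a smallest adjusted p of 0.0704 and a log2 range of −0.24 to 0.84. edgeR called 1 of them. For acceleration (ACC, HY minus IY) 0 of 30 were called by limma, where 0% of the 3211 comparisons of all miRNAs were, with 1 member at an unadjusted p under 0.05 and a log2 range of −0.37 to 0.31. Between the partners of heterochronic pairs (HA minus HY) 0 of 30 were called by limma, against 9.81% of all miRNA comparisons, with 4 at an unadjusted p under 0.05 and 1 called by edgeR. With the pair as a block, over complete pairs, 0 of 30 were called by limma, with 0 at an unadjusted p under 0.05 and a smallest adjusted p of 0.240. In liver miR-27b-3p was higher in the aged partner in 6 of 7 pairs (means 3193 and 2114 rpmm, paired log2 difference 0.61, SE 0.32, adjusted p = 0.351, limma) and miR-24-3p in 5 of 7 (2213 and 1538, 0.61, SE 0.33, adjusted p = 0.354, limma). Of the other products, miR-23b-5p in heart was lower in HA (3.81 against 5.70 rpmm, log2 difference −0.51, adjusted p = 0.0414, limma without the block).

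Between aged and young isochronic mice (IA minus IY), 2 of 30 were called by limma, against 8.13% of all miRNA comparisons, and both were in heart, where 18.6% of miRNAs were called. miR-24-3p in heart was 16176, 11995, 12247, 20939, 13395, 17700, 21231 and 23534 rpmm in the IA mice and 17459, 9626, 13635, 9956, 9712, 9487, 10589 and 8619 in the IY mice. 6 of the 8 IY values lay below every IA value, and the groups overlapped. The means were 17152 and 11135, and the log2 difference was 0.62 (SE 0.17, adjusted p = 0.0167, limma). miR-27b-3p in heart was 7505, 6042, 7000, 6060, 6199, 5454, 6131 and 4478 in IA and 6826, 8141, 7315, 8891, 7421, 7133, 8873 and 8400 in IY. Its log2 difference was −0.37 (SE 0.13, adjusted p = 0.0461, limma). The groups overlapped through the lowest IY and the highest IA values. Side by side, heart miR-24-3p had means of 13926 in HY and 14328 in HA, between those of IY and IA, and heart miR-27b-3p 6862 and 6657.

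The libraries of a tissue were spread over sequencing pools. In heart, 6 IA and 3 IY libraries were in 1 pool and 2 IA and 5 IY in the other. With the pool as a covariate, added after the values were seen, neither was called (miR-24-3p 0.48, adjusted p = 0.0598, and miR-27b-3p −0.34, adjusted p = 0.0913, both limma). Within the pools the difference was 0.42 and 0.53 for miR-24-3p and −0.34 and −0.27 for miR-27b-3p, of the same sign in both. The call of miR-24-3p held without any 1 mouse (0.55 to 0.72), whereas that of miR-27b-3p was lost without each of 11 mice (−0.42 to −0.31 over all). Among the marker lists in heart, the white blood cell list was higher in IA by 0.37 log2 (1018 to 1603 rpmm against 823 to 1352), the muscle list differed by −0.19 (127245 to 222860 against 185519 to 241883) and the liver list by −1.47 (1.48 to 72.1 against 2.05 to 99.3, all of it far under the liver's own level). Summed miRNA rpmm was 425740 to 580746 in IA and 526641 to 570782 in IY. The part of these in the differences was not tested.

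Of 38 IA minus IY comparisons of the other products over 6 tissues, 3 were called by limma, all in heart. The share over all miRNA comparisons was 8.13%. They come from the same heart libraries, uneven over the pools, and are given here without the pool term. The 5p products of both miR-24 genes were among them. miR-24-2-5p had means of 140 rpmm in IA and 84.7 in IY (0.69, adjusted p = 0.0199, limma) and miR-24-1-5p was higher in IA too (0.62, adjusted p = 0.0178, limma). miR-27a-5p was 4.28 and 1.99 (0.76, adjusted p = 0.0335, limma). The members miR-23a-3p and miR-23b-3p in heart had log2 differences of −0.04 and −0.01, and miR-27a-3p of −0.20 (adjusted p = 0.223, limma).

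The ratio of miR-27a-3p to miR-27b-3p separated the isochronic groups in kidney. It lay between −0.53 and −0.16 in the 8 IA mice (mean −0.34, SD 0.12) and between −0.95 and −0.52 in the 8 IY mice (mean −0.70, SD 0.14). The difference was 0.36 (exact permutation test, two-sided p = 0.000311, adjusted p = 0.00559 over 18 relations). Only the highest IY value reached the lowest IA value, and within each of the 2 pools the groups did not overlap (0.37 in both). With labels exchanged only within pools the exact p was 0.000567, the smallest that test can give (adjusted p = 0.0102). The call held without any 1 mouse. Over the 4 and 4 pair means the exact p was 0.0286, again the smallest possible, and the adjusted p of 0.0857 did not pass. The HY mice lay between −0.84 and −0.41 (n = 7) and the HA mice between −0.62 and 0.13 (n = 6).

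In heart the same ratio was higher in IA by 0.17 (adjusted p = 0.0252, exact permutation test), from −0.06 to 0.30 in IA and from −0.12 to 0.05 in IY. It was not called within pools (0.14, adjusted p = 0.112, exact permutation test) and was lost without any of 3 IY mice. Because the paralogues differ at 1 base and 1 mismatch was allowed, these miR-27 ratios may understate or otherwise misstate the true ratio, which was not tested. No other ratio passed between IA and IY. Each tested ratio was lower in IA in GAT and MAT, and higher in kidney and liver. The differences in GAT were −0.36 for miR-23, −0.30 for miR-27 and −0.39 for the miR-24 5p arms. In the aging cohort the miR-27 ratio was not called with age in kidney (rho 0.27, adjusted p = 0.149 by permutation) or heart (0.29, adjusted p = 0.108 by permutation).

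**Figure D5:**
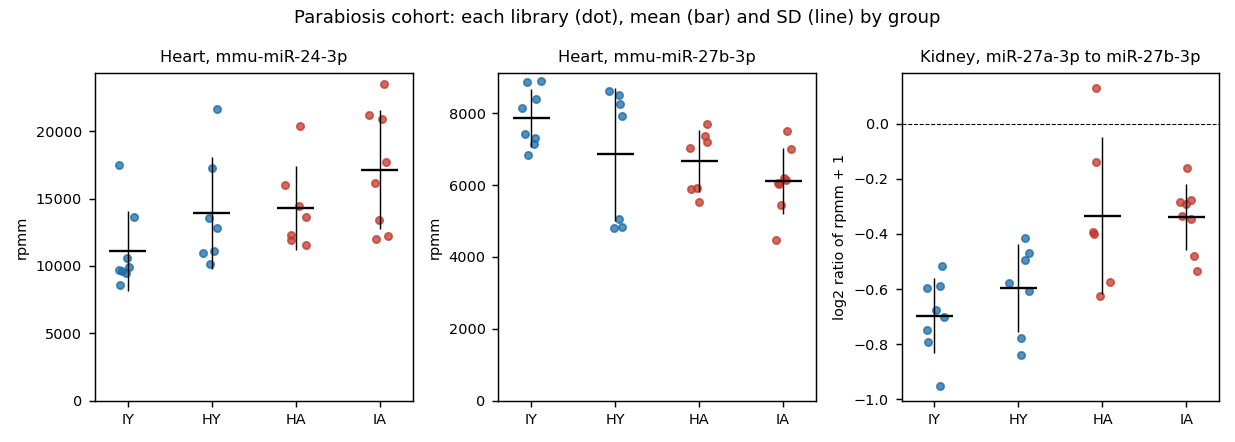
Heart miR-24-3p and miR-27b-3p in rpmm and the kidney log2 ratio of miR-27a-3p to miR-27b-3p in the IY, HY, HA and IA groups. Each dot is 1 mouse, the bar is the group mean and the line is 1 SD to either side. In kidney the IA mice, between −0.53 and −0.16, sit above nearly all IY mice, between −0.95 and −0.52.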

How the data were processed

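Small RNA libraries of both cohorts were sequenced on the BGISEQ500RS in single-end mode, and the authors processed them with miRMaster, aligning reads with Bowtie at up to 1 mismatch per read to miRBase and other noncoding RNA references (build mm10). They kept the first of identical paralogues, left out libraries with under 2 M aligned reads, and deposited rpmm, a normalized signal per RNA and library (reads per M mapped). Aligner versions are not given here. RNA of the aging cohort had an additional precipitation. The deposited signal values of a library summed to over 1000000 in 766 of 769 libraries of the aging cohort and in 176 of 176 of the parabiosis cohort, so rpmm is not a share of the listed RNAs. 2 small-intestine columns matched no sample and were not used.

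miRNAs of at least 1 rpmm in at least 10% of a tissue's libraries were tested. Values were tested as log2(rpmm + 1) in limma 3.58.1 (R 4.3.3) with trend, two-sided, with Benjamini-Hochberg adjustment over all miRNAs of a tissue within a contrast and calls at an adjusted p under 0.05. Standard errors are limma's. Fold changes are on the log2(rpmm + 1) scale. Correlations used 100000 permutations (numpy 2.4.6, scipy 1.17.1, pandas 2.3.3, Python 3.11.15). Dividing values by the step that 1 read is worth gave whole reads for 100% of values of other RNAs and for 99.0% (aging) and 98.8% (parabiosis) of miRNA values, within 0.05 reads over values up to 1000 reads, and edgeR 4.0.16 was run on them as an alternative. Other alternatives were 2 scalings (to miRNA reads and by median ratio), no filter, a mean of at least 10 rpmm, a pseudocount of 0.1, a fold criterion, plate or pool terms, and leaving out libraries. Scripts were tested on simulated data. Figures were drawn with matplotlib 3.10.9.

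The members, marker lists and tests were chosen with earlier results of these data known. The paralogue ratio tests, the difference in age slope between tissues and the pool term were chosen after seeing the data. Named in every comparison were the 5 members, the other products of the same genes where called, and the 3 miRNAs most like each member over tissue means and within tissues. Libraries of a group are separate samples, and p-values measure their spread. In the isochronic groups of the parabiosis cohort the mice were joined in pairs and are not independent units. Results at the level of the pair are given apart. Sequencing reads carry no molecular identifiers, so read counts are not counts of molecules.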

Additional observations from a re-analysis of the deposited data

Results flagged for a closer look

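Among 36 groups of 4 to 10 libraries in which a called member was examined, 2 held a library far from the others, where chance flags about 1 in 20 groups. In BAT at 15 months, miR-24-3p was 636 rpmm in replicate 38, against 3315 to 4373 in the other 4 libraries. In BAT at 27 months it was 11242 rpmm in replicate 19, against 5205 to 5619 in the other 3 libraries.

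The slope of the members on age differed between BAT and limb muscle in a test added after the values were seen (limma, all 5 with an adjusted p between 0.0125 and 0.0387). Both tissues held called relations of members with age in the same libraries, so the test gives no independent support for them. In log2 units per month, BAT was steeper by 0.0797 for miR-23a-3p, 0.102 for miR-23b-3p, 0.0999 for miR-24-3p, 0.0910 for miR-27a-3p and 0.0730 for miR-27b-3p. Of all miRNAs 58.0% were called in the same comparison. Scaled to miRNA reads 3 of the 5 were called, and with median-ratio scaling 0 of the 5.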

How the results depend on the processing

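The number of called member relations with age was 3 as reported and 0 after scaling to miRNA reads, 1 with median-ratio scaling, 0 without the 24- and 27-month libraries, 5 in males only, 1 with plate means removed and 7 by adjusted p. With median-ratio scaling the rho of miR-23a-3p in BAT reversed, from 0.58 to −0.0089. For later ages against 3 months, 1 call became 34 with a fold criterion on ratios of means (27 higher, 7 lower), 3 with edgeR, 0 without a filter, 8 after scaling to miRNA reads and 2 with median-ratio scaling. For 21 against 3 months, 0 became 9, 1 and 1 with the fold criterion, edgeR and miRNA-read scaling, and 0 to 2 when 1 library was left out. For 3 against 1 month, 2 became 6 with the fold criterion, 5 at a mean of at least 10 rpmm, 1 without libraries closest to another tissue, 0 with edgeR, no filter, either scaling or a plate covariate, and 0 to 5 when 1 library was left out. For sex, 2 became 1 with the fold criterion, 5 with edgeR, 0 without a filter and 4 with median-ratio scaling. For HA minus IA, 0 became 3, 1 and 1 with the fold criterion, edgeR and miRNA-read scaling, and 0 to 2 without 1 mouse. For HA minus HY, 0 became 2 with the fold criterion, 1 with edgeR, and 0 to 1 without 1 mouse. For IA minus IY, 2 became 1 without a filter, 1 after scaling to miRNA reads, 0 with the pool as a covariate, and 1 to 2 without 1 mouse. The ratio relations with age fell from 13 to 7 with plate means removed, 2 without the 1-month libraries (1 of them negative) and 5 without those of 24 and 27 months (1 negative). The cause of these shifts was not tested. Calls for HY minus IY, the slope by sex and the levels by tissue did not move by over 1.5 times under the alternatives run.

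Over all groups, in no tissue did the deviations of partners correlate by more than 0.1 in every pair. They did so in 41 of 86 pairs and tissues (−0.84 to 0.91), with 4 of 15 in GAT, 9 of 15 in heart, in limb muscle and in liver, 8 of 14 in kidney and 2 of 12 in MAT. In liver all 7 heterochronic pairs were above 0.1 (0.34 to 0.81), and in heart 6 of 7. In kidney all 4 IA pairs were (0.12 to 0.35). With the pair as a replicate block, IA minus IY gave 1 call, since heart miR-27b-3p had an adjusted p of 0.0588 (limma), and the paralogue ratios between IA and IY gave 0 over pair means, against 2 as reported. With labels exchanged within pools they gave 1, and without 1 mouse 1 to 6. Replicate numbers occurred once per tissue in the aging cohort, so no block was possible there. Depth did not limit the 5 members, all of which had at least 121 reads in every library, but the 5p products other than those of miR-24 stood at a few rpmm.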
